A study of Homo sapiens with 16 samples.

Results

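Homologous recombination and the repair pathways next to it were followed through 35 genes, chosen by name from a list of repair genes. Earlier results of these data were known when they were chosen. Each of the 35 names matched 1 row among the 58721 genes of the count table. RNA was sequenced from the 3' end of transcripts in 16 libraries of 2 bladder cancer cell lines, RT112, a luminal line grown in RPMI with 10% FBS, and SCaBER, a basal line grown in DMEM with 10% FBS. In each line cells received 10 nM of 1 of 4 siRNAs: siFOXA1.1 or siFOXA1.2, both against the transcription factor FOXA1, or siControl.1 or siControl.2, which served as controls. Each siRNA had 2 libraries per line, numbered by experiment batch replicate, so each line had 4 siControl libraries. The knock-down was transient and was kept under 72 h in the study's description. Line and medium cannot be told apart, and each line is 1 culture model with no stroma or immune cells. The question put to these genes was whether they changed when FOXA1 was silenced, and whether the change differed between siRNAs and between lines.

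Homologous recombination repairs a double-strand break by copying the sister chromatid: the broken end is resected, BRCA1 and its partners bring in BRCA2, and BRCA2 loads the recombinase that searches for the matching sequence. The Fanconi pathway recognises crosslinks between the DNA strands, and its core complex attaches ubiquitin to FANCD2 and FANCI so that the lesion can be cut out and passed to recombination. Many of these genes are transcribed most in cells that replicate their DNA.

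The target and the libraries were examined first. CPM are counts scaled to the library total, and p-values come from edgeR. Values after ± are standard errors, derived as the absolute log2 fold change over the square root of the edgeR F statistic. The siControl values are listed as siControl.1 replicates 1 and 2, then siControl.2 replicates 1 and 2. In RT112, FOXA1 gave 35, 29.4, 18.2 and 28.4 CPM in the siControl libraries, 1.32 and 3.24 CPM under siFOXA1.1 and 9.18 and 16 CPM under siFOXA1.2, a log2 fold change of -3.45 ± 0.47 (adjusted p = 1.39e-05) under siFOXA1.1 and -1.1 ± 0.39 (adjusted p = 0.215) under siFOXA1.2. In SCaBER, FOXA1 had 3 to 15 counts in the siControl libraries and 0 to 6 counts in the siFOXA1 libraries, too close to the floor of 3 counts for a fold change. Library totals ran from 6622473 to 7604581 counts in RT112 and from 4528513 to 6914951 counts in SCaBER. GATA3, PPARG and UPK1B, luminal markers, were high in RT112, and KRT6A, KRT14 and DSG3, basal markers, in SCaBER, whereas KRT16, also on the basal list, gave 202 to 476 counts in RT112 and 84 to 321 in SCaBER. UPK3A was at 0 in both lines and KRT20 had at most 5 counts. DCN, PTPRC and CD3E, which mark fibroblasts and leukocytes, were at 0 in every library. LUM, another fibroblast gene on the list, gave 332 to 1002 counts in RT112 and 22 to 181 counts in SCaBER, and COL1A1 gave 54 to 386 and 10 to 141 counts. Mitochondrial genes took 25.7% to 28.2% of the counts in the RT112 siFOXA1.1 libraries and 18% to 21.2% in the siControl libraries.

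Under siFOXA1.1 many of the repair genes fell, and under siFOXA1.2 none passed the test. In RT112, 16 of 35 members were lower and none was higher with siFOXA1.1 than with the siControl siRNAs at an adjusted p under 0.05, against 15.1% of the 13462 genes tested that were lower and 14.0% that were higher. In SCaBER, 10 of 35 members were lower and none was higher, against 4.07% lower and 3.8% higher among 13407 genes. All 10 SCaBER members were among the 16 of RT112. Because the members were chosen with earlier results of these data known, the comparison with all genes is not an independent test. The members had a median log2 fold change of -1.1 (RT112) and -0.89 (SCaBER), beside -0.02 and 0.01 over all genes tested. In these bulk libraries, fewer cells that express a gene and less RNA of it per cell cannot be told apart.

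With siFOXA1.2, 0 of 35 members passed the edgeR quasi-likelihood test in either line. None had an unadjusted p under 0.05 either, where 1529 of 13462 genes in RT112 and 702 of 13407 in SCaBER did. DESeq2 also called 0. The background of calls at an adjusted p under 0.05 was low, at 1.78% of genes in RT112 and 0.0373% in SCaBER. Median log2 fold changes of the members were 0.00 in RT112 and -0.03 in SCaBER, with standard errors of 0.14 to 1.24 and 0.16 to 1.64 for single members. Between the control siRNAs, siControl.1 against siControl.2, 0 members were called in both lines, where 2.11% of genes in RT112 and 0.0671% in SCaBER were, and DESeq2 called 0 too. At an unadjusted p under 0.05 there were 3 members in RT112 and 0 in SCaBER, beside 1644 of 13462 and 852 of 13407 genes.

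The 2 FOXA1 siRNAs were also set against each other. With siFOXA1.1 against siFOXA1.2, the same 16 members as against the controls were lower in RT112, beside 13.3% of all genes. Both comparisons use the same siFOXA1.1 libraries and the same fit, so they are not independent of each other. In SCaBER 6 members were lower (BRCA1, BARD1, XRCC2, FANCA, FANCE and TOPBP1), beside 2.42% of all genes. With the replicate block 10 members were lower, beside 527 of 13407 genes. Leaving out either siFOXA1.2 library lowered this SCaBER count, and 1 siFOXA1.2 library was then left. The number of calls over all genes fell in those fits too. When the 4 siFOXA1 libraries of a line were pooled, 0 members were called in either line, beside 0.108% of genes in RT112 and 0.0084% in SCaBER. In that pooled comparison 3 members in RT112 and 6 in SCaBER had an unadjusted p under 0.05. Over all genes, 1454 of 11986 in RT112 and 1059 of 11902 in SCaBER did. DESeq2 called 0 members in both lines.

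Libraries were also compared without a model. Both siFOXA1.1 libraries lay below all 4 siControl libraries for 23 of 35 members (65.7%) in RT112 and for 19 (54.3%) in SCaBER, where 27.2% and 15.3% of all genes tested did. Both siFOXA1.2 libraries lay below all 4 siControl libraries for 5 members (14.3%) in each line, beside 10.7% of genes in RT112 and 8.09% in SCaBER. They lay above all 4 for 1 member in RT112 (FANCG) and 2 in SCaBER (PMS2 and RBBP8), without a call. The share of all genes that lay above was not computed. Taken within 1 batch, siFOXA1.1 was below the mean of the siControl libraries of that batch for 27 of 35 members in batch 1 and 33 in batch 2 of RT112, and for 30 and 28 in SCaBER. The called members, which were chosen in these same libraries, were all below it in both batches. For siFOXA1.2 the same counts were 20 of 35 members in each batch of RT112, and 19 and 25 in SCaBER. The share of all genes below the mean of their batch controls was not computed.

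Of the 5 members that bind BRCA1 or act with it, 4 fell with siFOXA1.1 in RT112 and 3 in SCaBER. BRCA1 (ENSG00000012048, chr17:43044295-43170327 on GRCh38.p14), a ubiquitin ligase that directs broken ends to recombination, fell to 23.7% of the siControl mean in RT112 and to 41.8% in SCaBER under siFOXA1.1. In RT112, BRCA1 gave 104, 103, 102 and 119.5 CPM in the siControl libraries, 31.3 and 19.4 CPM under siFOXA1.1 and 99.1 and 95.9 CPM under siFOXA1.2. In SCaBER it gave 120.1, 87.6, 96.1 and 98.3 CPM in the siControl libraries, 49 and 35 CPM under siFOXA1.1 and 95.6 and 84.6 CPM under siFOXA1.2. Both siFOXA1.1 libraries were below every siControl library in each line, and siFOXA1.2 averaged 90.9% of the siControl mean in RT112 and 89.7% in SCaBER, with both RT112 libraries below all 4 controls. The log2 fold change was -1.96 ± 0.20 (adjusted p = 3.86e-07) in RT112 and -1.23 ± 0.25 (adjusted p = 0.00616) in SCaBER.

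BARD1, the partner that BRCA1 needs for its ligase activity, also fell in both lines. RT112 gave 64.7, 54.4, 71.6 and 78.9 CPM in the siControl libraries, 28.3 and 18.4 CPM under siFOXA1.1 and 66.7 and 76.6 CPM under siFOXA1.2. SCaBER gave 57.7, 72.2, 58.9 and 59.6 CPM in the siControl libraries, 24.6 and 18.5 CPM under siFOXA1.1 and 48.9 and 50.9 CPM under siFOXA1.2. In both lines the siFOXA1.1 libraries were apart from the controls, with log2 fold changes of -1.40 ± 0.22 (adjusted p = 6.01e-05) in RT112 and -1.49 ± 0.27 (adjusted p = 0.0027) in SCaBER. Both siFOXA1.2 libraries of SCaBER were below the controls as well, without a call (-0.29 ± 0.25, adjusted p = 1). BRCA2, which loads the recombinase on single-stranded DNA, was called in both lines too. BRCA2 in RT112 gave 47.3, 39.1, 41.7 and 42.9 CPM in the siControl libraries, 14.6 and 17.1 CPM under siFOXA1.1 and 26.2 and 39.2 CPM under siFOXA1.2. In SCaBER the values were 38.9, 46.9, 38.8 and 43.3 CPM in the siControl libraries, 14.6 and 8.97 CPM under siFOXA1.1 and 29.8 and 28.2 CPM under siFOXA1.2. The fold changes were -1.30 ± 0.27 (adjusted p = 0.000912) in RT112 and -1.80 ± 0.33 (adjusted p = 0.00281) in SCaBER, and both siFOXA1.2 libraries of SCaBER also lay below the controls without a call (-0.51 ± 0.30, adjusted p = 0.984).

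BRIP1, a helicase that binds BRCA1, was called in RT112 alone, at -1.93 ± 0.38 (adjusted p = 0.000659). In SCaBER it was -1.09 ± 0.41 (adjusted p = 0.129), and -1.18 with an adjusted p of 0.0271 with the replicate block and -1.96 with an adjusted p of 0.00301 without siFOXA1.1 replicate 1. In SCaBER BRIP1 averaged 45.7% of the siControl mean under siFOXA1.1 and 55.6% under siFOXA1.2, and both siFOXA1.2 libraries were below all 4 controls without a call (-0.81 ± 0.40, adjusted p = 0.974). The difference between the lines under siFOXA1.1 was not called (-0.87 ± 0.57, adjusted p = 0.533). PALB2, the bridge between BRCA1 and BRCA2, was not called, at -0.55 ± 0.39 and 0.06 ± 0.39.

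Of the 5 paralogs of the recombinase, which help its filament form, XRCC2 was called in RT112 (-2.19 ± 0.53, adjusted p = 0.00355) and none in SCaBER. In RT112 it gave 29.1, 22.5, 41.7 and 21.7 CPM in the siControl libraries, 10.4 and 1.18 CPM under siFOXA1.1 and 18.1 and 21.4 CPM under siFOXA1.2. The siFOXA1.1 libraries were unequal, and the change was -4.44 without siFOXA1.1 replicate 1 and -1.37 without replicate 2. Both siFOXA1.2 libraries of RT112 were below the controls without a call (-0.52 ± 0.47, adjusted p = 0.774). XRCC2 in SCaBER was -1.26 ± 0.37 (adjusted p = 0.0513), just outside the threshold. It passed there with DESeq2, with library totals, without the filter on low counts, with the replicate block (-1.33, adjusted p = 0.0123), and when any 1 of siControl.1 replicate 1 or 2, siControl.2 replicate 1, siFOXA1.1 replicate 1 or either siFOXA1.2 library was left out (-1.21 to -1.88). XRCC3 had log2 fold changes of -1.21 ± 0.59 and -2.28 ± 0.80, and 5 to 78 counts over all libraries. XRCC3 passed in RT112 without siFOXA1.1 replicate 2 (-2.32, adjusted p = 0.0195). In SCaBER it passed with DESeq2 (adjusted p = 0.0369) and with all 16 libraries in 1 fit (adjusted p = 0.046). RAD51B, RAD51C and RAD51D were not called, with values from -0.99 ± 0.36 for RAD51C in SCaBER to 0.36 ± 0.28 for the same gene in RT112. RAD51B rested on 4 to 66 counts.

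The translocases RAD54L and RAD54B, which remodel the recombinase filament, were thinly covered. RAD54L fell in RT112 (-2.32 ± 0.56, adjusted p = 0.00367, and 0.0852 with all 16 libraries in 1 fit), where its counts were 38 to 105 in the other 6 libraries and 13 and 10 under siFOXA1.1. In SCaBER it had 0 to 31 counts and was -0.60 ± 1.28. The last 500 bases of RAD54L share exonic sequence with LRRC41 on the opposite strand, and LRRC41 was also lower in RT112 (-1.27 ± 0.30, adjusted p = 0.00277). Whether reads of that gene were counted for RAD54L was not tested. RAD54B had 23 to 28 counts in the RT112 siControl libraries and 0 and 6 under siFOXA1.1, and 4 to 12 and 1 and 0 in SCaBER. No fold change is given for RAD54B in SCaBER, where no library had over 12 counts, and it was not called in either line. Without siFOXA1.1 replicate 2, the lone siFOXA1.1 library of RT112 was at 0 and RAD54B passed at an adjusted p of 0.0276.

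In the Fanconi core complex, 3 of 8 members fell in both lines. FANCE (ENSG00000112039, chr6:35452338-35467102 on GRCh38.p14), which joins the core to FANCD2, had the largest change among called members in RT112, to 13.6% of the siControl mean. RT112 libraries gave 35.5, 21.6, 29.5 and 27.5 CPM in the siControl libraries, 3.95 and 3.83 CPM under siFOXA1.1 and 28.8 and 26.5 CPM under siFOXA1.2. SCaBER libraries gave 19.1, 24.2, 20.1 and 22.5 CPM in the siControl libraries, 6.44 and 5.64 CPM under siFOXA1.1 and 30.9 and 16.8 CPM under siFOXA1.2. The siFOXA1.1 values sat together and below all controls in each line, with log2 fold changes of -2.75 ± 0.36 (adjusted p = 7.79e-06) in RT112 and -1.80 ± 0.41 (adjusted p = 0.0134) in SCaBER. FANCA (ENSG00000187741, chr16:89737549-89816647 on GRCh38.p14), a scaffold subunit, was next. FANCA gave in RT112 42.7, 64, 38.1 and 56 CPM in the siControl libraries, 6.88 and 9.28 CPM under siFOXA1.1 and 37.6 and 31 CPM under siFOXA1.2. For SCaBER the values were 32.3, 42.4, 47.2 and 50.8 CPM in the siControl libraries, 11.4 and 10.8 CPM under siFOXA1.1 and 27.6 and 32.6 CPM under siFOXA1.2. The fall under siFOXA1.1 was -2.50 ± 0.31 (adjusted p = 3.59e-06) in RT112 and -1.91 ± 0.31 (adjusted p = 0.00114) in SCaBER. Under siFOXA1.2 FANCA averaged 68.3% and 69.8% of the controls without a call (-0.53 ± 0.26, adjusted p = 0.461 and -0.48 ± 0.28, adjusted p = 0.984), and in RT112 both libraries were below all 4 controls.

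FANCG, another core subunit that pairs with FANCA, also fell in each line. In RT112, FANCG libraries gave 47.6, 51, 42.8 and 46.7 CPM in the siControl libraries, 20.2 and 16.4 CPM under siFOXA1.1 and 58.3 and 51.5 CPM under siFOXA1.2. In SCaBER, FANCG libraries gave 37.3, 45, 25.2 and 29.8 CPM in the siControl libraries, 3.60 and 13.4 CPM under siFOXA1.1 and 21.7 and 31.4 CPM under siFOXA1.2. The SCaBER siFOXA1.1 libraries were unequal, 19 and 93 counts, and both were below the controls. Log2 fold changes were -1.24 ± 0.23 (adjusted p = 0.000356) in RT112 and -1.94 ± 0.44 (adjusted p = 0.0124) in SCaBER. In SCaBER this call was lost with siControl.2 alone as control (adjusted p = 0.0541) and with limma on log2 TPM (adjusted p = 0.0588), and without siFOXA1.1 replicate 2 the change was -3.15. A coding gene model on the same strand has an exon within the last 500 bases of FANCG, so reads there cannot be told apart. FANCB, FANCC, FANCF, FANCL and FANCM were not called in either line. FANCB was -1.18 ± 0.93 and -0.37 ± 0.97 and FANCC 0.41 ± 0.42 and -0.61 ± 0.44 in RT112 and SCaBER. FANCM, the translocase that anchors the core to DNA, was -1.18 ± 0.49 and -1.20 ± 0.49, FANCF 0.16 ± 0.41 and -1.17 ± 0.56, and FANCL, the ubiquitin ligase subunit, -0.19 ± 0.34 and -0.30 ± 0.41. FANCM averaged 56.9% of the siControl mean in RT112 and 60% in SCaBER under siFOXA1.2, with both RT112 libraries below the controls, without a call.

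The targets of that ubiquitin ligase fell in both lines. UBE2T, its conjugating enzyme, was called in RT112 alone, but its difference between the lines under siFOXA1.1 was not called. FANCD2 in RT112 gave 69, 80.3, 78.4 and 76.3 CPM in the siControl libraries, 35.6 and 29.8 CPM under siFOXA1.1 and 73 and 88 CPM under siFOXA1.2. FANCD2 in SCaBER gave 86.4, 92.7, 89.6 and 99.4 CPM in the siControl libraries, 54.4 and 47.9 CPM under siFOXA1.1 and 72 and 94.9 CPM under siFOXA1.2. Its log2 fold change was -1.1 ± 0.19 (adjusted p = 0.000182) in RT112 and -0.82 ± 0.22 (adjusted p = 0.0357) in SCaBER, and the SCaBER call was lost with limma on log2 TPM, with either control siRNA alone, and on leaving out either siFOXA1.2 library, siFOXA1.1 replicate 2, siControl.1 replicate 2 or either siControl.2 library (adjusted p = 0.0526 to 0.135). FANCI in RT112 gave 40.8, 34.1, 68.4 and 75.6 CPM in the siControl libraries, 12.2 and 6.92 CPM under siFOXA1.1 and 47.8 and 69.2 CPM under siFOXA1.2. FANCI in SCaBER gave 58.1, 59.7, 55.2 and 57.4 CPM in the siControl libraries, 28.2 and 27.5 CPM under siFOXA1.1 and 53.2 and 41.2 CPM under siFOXA1.2. The log2 fold change of FANCI was -2.32 ± 0.28 (adjusted p = 2.87e-06) in RT112 and -1.02 ± 0.25 (adjusted p = 0.0217) in SCaBER, and in SCaBER both siFOXA1.2 libraries were below the controls without a call (-0.26 ± 0.24, adjusted p = 1). The SCaBER call was lost with limma, with siControl.2 alone, and without siControl.2 replicate 1 or 2 or siFOXA1.1 replicate 2 (adjusted p = 0.0531 to 0.0744). The siControl.1 libraries of RT112 were lower for FANCI than the siControl.2 libraries. POLG, whose exon overlaps the end of FANCI on the opposite strand, was 0.21 ± 0.24 in RT112 and 0.48 ± 0.33 in SCaBER and was not called. UBE2T was -0.73 ± 0.25 (adjusted p = 0.0309) in RT112 and -0.92 ± 0.41 (adjusted p = 0.212) in SCaBER. Its RT112 call was lost with siControl.1 alone, with all 16 libraries in 1 fit, and without siControl.1 replicate 1, siControl.2 replicate 2 or siFOXA1.1 replicate 2 (adjusted p = 0.0695 to 0.322), its RT112 change was -1.15 without siFOXA1.1 replicate 1 and -0.42 without replicate 2, and in SCaBER it was -2.15 with an adjusted p of 0.000744 without siFOXA1.1 replicate 2.

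Among the mismatch repair members, MSH6 (ENSG00000116062, chr2:47783145-47810101 on GRCh38.p14), which recognises mispaired bases, fell in both lines. MSH6 gave in RT112 84.6, 103, 138 and 140.4 CPM in the siControl libraries, 48.3 and 29 CPM under siFOXA1.1 and 100 and 98.1 CPM under siFOXA1.2. MSH6 gave in SCaBER 67.1, 95.7, 119.6 and 107 CPM in the siControl libraries, 50.8 and 50.3 CPM under siFOXA1.1 and 86.5 and 80.2 CPM under siFOXA1.2. The fold changes were -1.44 ± 0.19 (adjusted p = 1.06e-05) in RT112 and -0.90 ± 0.23 (adjusted p = 0.0225) in SCaBER. In SCaBER the call was lost with limma, with siControl.1 alone, and without siControl.2 replicate 1, siControl.1 replicate 2 or siFOXA1.1 replicate 2 (adjusted p = 0.0528 to 0.178). FBXO11, which overlaps the end of MSH6 on the opposite strand, was not called in either line (-0.17 ± 0.24 and 0.22 ± 0.25). PMS2 had 3 to 51 counts in RT112 and 6 to 45 in SCaBER, has near-identical copies in the genome that can share its reads, and was not called. BRCA1 and FANCD2 also have partial copies, so their counts carry the same uncertainty.

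The promoters of 4 members that fell in both lines are printed, since these had the largest RT112 changes among those with a window. The windows hold 250 bases before and 50 after the RefSeq start on GRCh38.p14, and 32 of 35 members had one. Capitals mark an E2F-type match, that is TTTCCCGC, TTTCGCGC, TTTGCCGC or TTTGGCGC on either strand. FANCE is at chr6:35452088-35452387 (+), FANCA at chr16:89816598-89816897 (-), BRCA1 at chr17:43125315-43125614 (-, 1 of 2 windows) and MSH6 at chr2:47782895-47783194 (+, 1 of 4 windows).
FANCE: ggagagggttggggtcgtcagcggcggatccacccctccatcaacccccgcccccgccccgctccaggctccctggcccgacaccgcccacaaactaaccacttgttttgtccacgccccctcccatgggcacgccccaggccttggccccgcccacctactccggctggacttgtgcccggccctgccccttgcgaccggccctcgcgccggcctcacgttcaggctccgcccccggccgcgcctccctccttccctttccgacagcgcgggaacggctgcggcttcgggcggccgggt
FANCA: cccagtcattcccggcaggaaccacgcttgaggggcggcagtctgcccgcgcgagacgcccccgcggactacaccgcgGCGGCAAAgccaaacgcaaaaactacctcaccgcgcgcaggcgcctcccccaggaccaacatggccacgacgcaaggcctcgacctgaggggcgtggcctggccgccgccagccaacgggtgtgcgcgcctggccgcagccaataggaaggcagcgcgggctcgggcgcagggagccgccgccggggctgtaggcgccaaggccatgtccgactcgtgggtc
BRCA1: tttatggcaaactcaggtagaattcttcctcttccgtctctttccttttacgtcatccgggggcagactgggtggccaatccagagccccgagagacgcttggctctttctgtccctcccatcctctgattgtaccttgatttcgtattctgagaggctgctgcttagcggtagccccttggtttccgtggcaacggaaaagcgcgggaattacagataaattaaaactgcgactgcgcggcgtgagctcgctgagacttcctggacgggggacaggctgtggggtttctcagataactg
MSH6: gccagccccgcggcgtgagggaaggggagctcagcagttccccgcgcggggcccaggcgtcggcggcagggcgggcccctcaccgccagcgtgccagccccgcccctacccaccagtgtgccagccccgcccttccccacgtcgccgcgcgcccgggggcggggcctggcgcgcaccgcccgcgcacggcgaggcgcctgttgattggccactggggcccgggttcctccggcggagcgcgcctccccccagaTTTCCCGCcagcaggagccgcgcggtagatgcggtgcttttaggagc

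An E2F-type match lay in a window of 8 of 32 members (25.0%), against 3.99% of 27305 genes in the promoter table, 13.8% of 80 other repair genes and 57.1% of 14 proliferation genes. It was present for 4 of the 9 members that fell in both lines and had a window (FANCA, FANCD2, MSH6 and TOPBP1), for 5 of 15 that fell in RT112, and for 3 of 17 called in neither line. No window of FANCE or BRCA1 held one. CCAAT, searched on both strands, was in a window of 15 of 32 members (46.9%) and of 39.7% of genes, among them FANCA, BRCA1 and MSH6. The CHR-type letters TTTGAA or TTCGAA, which are short and common, were found for 5 of 32 members (15.6%) and 19.5% of genes. TGTTTAC or TGTTTGC, forkhead-type letters of the kind that FOXA proteins can bind, were found for 0 of 32 members and 8.68% of genes. These matches describe letters within the windows and were not tested against the changes.

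Of the 5 checkpoint members, 3 fell in RT112 and 1 in SCaBER. TOPBP1, which activates the kinase ATR at stalled forks, fell in both lines. TOPBP1 in RT112 gave 98.8, 84, 94.5 and 96.7 CPM in the siControl libraries, 47.6 and 52.4 CPM under siFOXA1.1 and 93.1 and 124 CPM under siFOXA1.2. TOPBP1 in SCaBER gave 104, 114, 118 and 110.0 CPM in the siControl libraries, 52.5 and 46 CPM under siFOXA1.1 and 124 and 106 CPM under siFOXA1.2. Its siFOXA1.1 libraries were about evenly low, at 53.5% and 44.1% of the siControl mean, with log2 fold changes of -0.78 ± 0.18 (adjusted p = 0.00207) in RT112 and -1.15 ± 0.21 (adjusted p = 0.0033) in SCaBER. ATM and ATR, the kinases at the head of the checkpoint, were not called: ATM was 0.04 ± 0.35 and 0.50 ± 0.45, and ATR -0.44 ± 0.22 and -0.42 ± 0.24.

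CHEK2 (ENSG00000183765, chr22:28687742-28741834 on GRCh38.p14), the effector kinase downstream of ATM, was the 1 member of 35 whose change under siFOXA1.1 differed between the lines, beside 2.59% of 15464 genes. The count of members was near that share. In RT112, CHEK2 gave 24.7, 22.8, 20.5 and 12.9 CPM in the siControl libraries, 3.95 and 3.54 CPM under siFOXA1.1 and 17.8 and 17.6 CPM under siFOXA1.2. In SCaBER, CHEK2 gave 21.3, 28.7, 22.4 and 13 CPM in the siControl libraries, 17 and 30.4 CPM under siFOXA1.1 and 24.7 and 18.5 CPM under siFOXA1.2. The RT112 siFOXA1.1 libraries were below all controls, while the SCaBER siFOXA1.1 libraries overlapped theirs. The log2 fold change was -2.29 ± 0.40 (adjusted p = 0.00021) in RT112 and 0.19 ± 0.36 (adjusted p = 0.828) in SCaBER, and the RT112 change minus the SCaBER change was -2.49 ± 0.53 (adjusted p = 0.0135). CHEK2 also has related copies in the genome, and reads that match a copy equally well cannot be assigned. With the replicate block 2 members differed between the lines, beside 625 of 15464 genes. The second was FANCI (-1.32, adjusted p = 0.0445), which was -1.32 ± 0.36 (adjusted p = 0.0539) without the block. FANCI also passed with DESeq2 (-1.31, adjusted p = 0.016) and with library totals (-1.40, adjusted p = 0.0421). It passed without the filter on low counts (adjusted p = 0.0425) and with siControl.2 alone (-1.79, adjusted p = 0.0306). FANCI fell in both lines. Without SCaBER siFOXA1.1 replicate 2 the difference between the lines was 1.91 for FANCG and -1.36 for FANCI. Without RT112 siFOXA1.1 replicate 1 it was -3.19 for XRCC2 and -1.75 for FANCI. Without RT112 siFOXA1.1 replicate 2 it was -1.86 for CHEK1. Each of these fits had 1 siFOXA1.1 library left in a line. For siFOXA1.2 the test of a difference between the lines called 0 members in edgeR and DESeq2, beside 0.0453% of genes in edgeR. At an unadjusted p under 0.05 there was 1 member, beside 902 of 15464 genes.

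CHEK1, the effector kinase downstream of ATR, fell in RT112 (-1.34 ± 0.32, adjusted p = 0.00342), where siFOXA1.1 gave 9.52 and 23 CPM against 41.4, 28.7, 65.2 and 51.1 CPM in the controls. This change was -0.83 without siFOXA1.1 replicate 1 and -2.15 without replicate 2. In SCaBER CHEK1 was -0.31 ± 0.31 (adjusted p = 0.64), and the difference between the lines was not called (-1.05 ± 0.48, adjusted p = 0.306), although it was without RT112 siFOXA1.1 replicate 2 (-1.86, adjusted p = 0.0496).

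**Figure D1:**
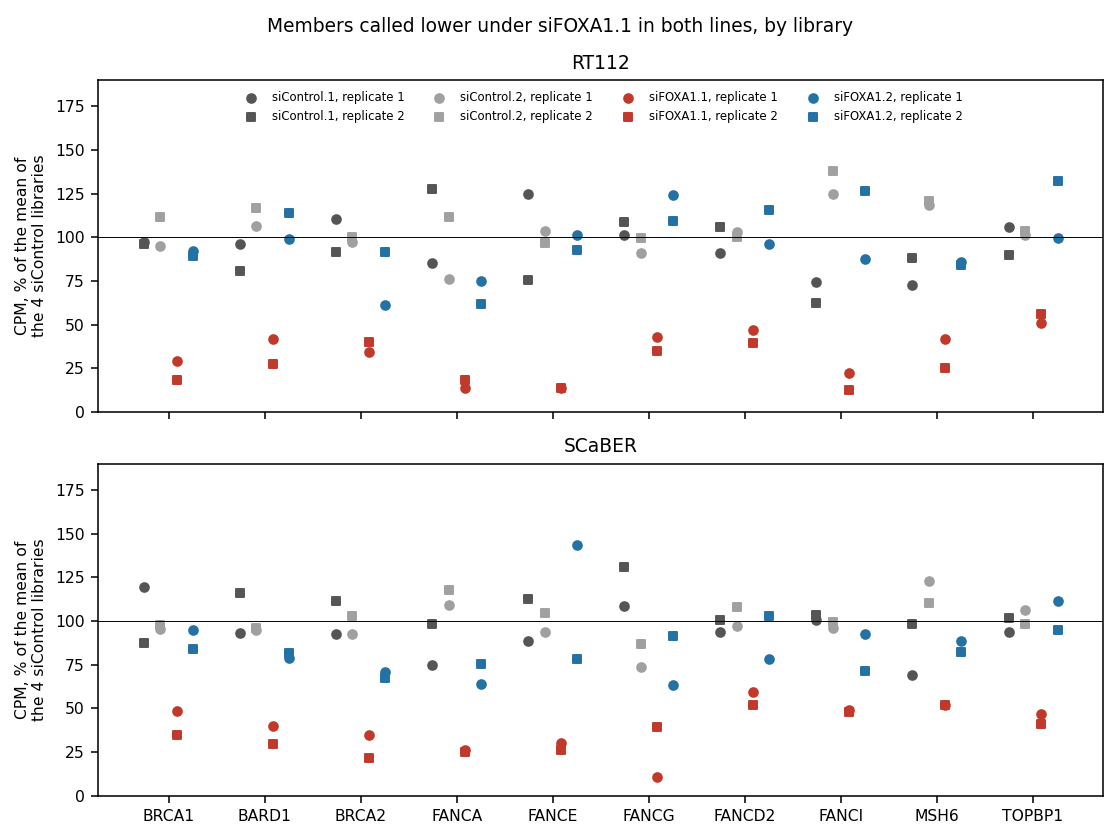
CPM of the 10 members that fell under siFOXA1.1 in both lines, as a percentage of the mean of the 4 siControl libraries of the same line, for each library (circle, replicate 1; square, replicate 2). Both siFOXA1.1 libraries lie below all 4 siControl libraries for each of the 10 members in RT112 (top) and SCaBER (bottom).

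**Figure D2:**
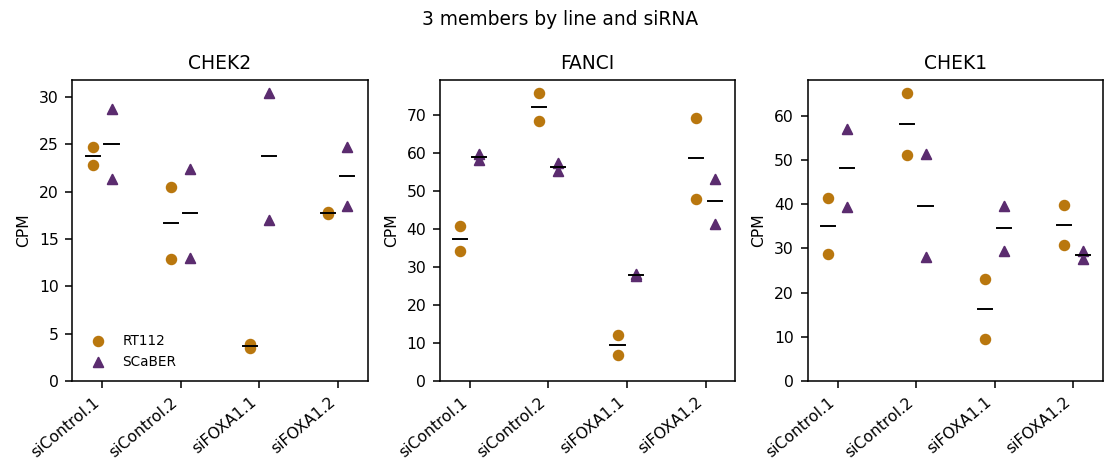
CPM of CHEK2, FANCI and CHEK1 in each library by siRNA, with circles for RT112, triangles for SCaBER and a bar at the mean of the 2 libraries. CHEK2 under siFOXA1.1 is at 3.95 and 3.54 CPM in RT112 and at 17 and 30.4 CPM in SCaBER.

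The remaining members did not pass the test in either line. PARP1, the sensor of strand breaks, was 0.13 ± 0.14 in RT112 and -0.46 ± 0.16 in SCaBER, where both siFOXA1.1 libraries were below all controls and DESeq2, of the alternatives run, called it (adjusted p = 0.0476). XRCC1, the scaffold of single-strand break repair, was -0.06 ± 0.18 and 0.09 ± 0.32. LIG1, the ligase of lagging-strand synthesis, was -0.71 ± 0.34 and -0.89 ± 0.46, and passed in RT112 without siFOXA1.1 replicate 1 (-1.34, adjusted p = 0.00897). NBN, a subunit of the complex that senses broken ends, was 0.17 ± 0.15 and 0.46 ± 0.25. OSGIN2, which overlaps the end of NBN on the opposite strand, rose in RT112 (1.08 ± 0.23, adjusted p = 0.00129). RBBP8, which starts resection, was -0.66 ± 0.31 and -0.01 ± 0.23. None of the 35 members was higher under siFOXA1.1 in both libraries than in all 4 controls, in either line. The share of all genes that were was not computed, so this count has no background beside it.

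Between the lines under siControl, 7 of 35 members differed: 2 were higher in RT112, where 22.7% of 14036 genes were, and 5 were lower, where 23.5% were. RAD54L and FANCG were the members higher in RT112. RAD54L gave 5.00, 8.00, 11.8 and 14.6 CPM in RT112 and 3.00, 4.83, 4.06 and 1.99 CPM in SCaBER, without overlap, and differed by 1.44 ± 0.46 (adjusted p = 0.0201). FANCG gave 47.6, 51, 42.8 and 46.7 CPM in RT112 and 37.3, 45, 25.2 and 29.8 CPM in SCaBER, with overlap, and differed by 0.50 ± 0.18 (adjusted p = 0.0339).

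Lower in RT112 were RAD51D, RBBP8, PARP1, FANCC and BRIP1. RAD51D gave 8.28, 18.9, 11 and 11.5 CPM in RT112 and 37.3, 22.1, 18 and 39.7 CPM in SCaBER, with 1 RT112 library inside the SCaBER range, a difference of -1.22 ± 0.34 (adjusted p = 0.00861). RBBP8 gave 28.7, 34.9, 27.7 and 34.9 CPM in RT112 and 75.5, 51.4, 65.7 and 70.9 CPM in SCaBER, a difference of -1.04 ± 0.19 (adjusted p = 0.000421). The lines did not overlap for RBBP8. PARP1 gave 192, 212, 202 and 199.8 CPM in RT112 and 338, 362, 387 and 432 CPM in SCaBER, a difference of -0.89 ± 0.11 (adjusted p = 7.30e-06). FANCC gave 14.1, 11.8, 7.58 and 10.4 CPM in RT112 and 19.6, 15.1, 19 and 27.4 CPM in SCaBER, a difference of -0.87 ± 0.29 (adjusted p = 0.0229). The PARP1 and FANCC values of the lines did not overlap either. BRIP1, with overlap between the lines, differed by -0.65 ± 0.23 (adjusted p = 0.0301).

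With the replicate block, 4 of the 7 differences between the lines remained called, and RAD54L (1.1, adjusted p = 0.249), FANCC (-0.90, adjusted p = 0.138) and FANCG (0.57, adjusted p = 0.135) were lost. Without RT112 siControl.1 replicate 2 the count was 3. FANCG lost its call on leaving out any 1 of siControl.1 replicate 1 and siControl.2 replicates 1 and 2 of SCaBER and all 4 siControl libraries of RT112 (adjusted p = 0.0617 to 0.145). RAD54L lost its call without SCaBER siControl.2 replicate 2, RT112 siControl.1 replicate 2 or RT112 siControl.2 replicate 2. BRIP1 lost its call without either replicate 1 siControl library of SCaBER, siControl.1 replicate 1 or 2 or siControl.2 replicate 1 of RT112, and FANCC without SCaBER siControl.1 replicate 1, SCaBER siControl.2 replicate 2, RT112 siControl.2 replicate 1 or RT112 siControl.1 replicate 2. With siControl.1 alone RAD51D (-1.1, adjusted p = 0.123), RAD54L (0.76, adjusted p = 0.498), FANCC (-0.40, adjusted p = 0.542) and FANCG (0.29, adjusted p = 0.453) lost their calls. With siControl.2 alone BRIP1 (-0.07, adjusted p = 0.891) and FANCG (0.68, adjusted p = 0.0583) did. FANCG also lost its call with DESeq2 (0.49, adjusted p = 0.0526) and without the filter on low counts (adjusted p = 0.0692). On log2 TPM with limma it was 0.096 (adjusted p = 0.6). FANCG kept its call in 4 of 18 alternatives. With all 16 libraries in 1 fit FANCG, RAD54L, FANCC and BRIP1 lost their calls (adjusted p = 0.0616 to 0.14). Members not called passed without SCaBER siControl.1 replicate 1 (XRCC1 and LIG1), SCaBER siControl.1 replicate 2 (MSH6), SCaBER siControl.2 replicate 2 (XRCC1) or RT112 siControl.2 replicate 1 (XRCC2 and LIG1), with an adjusted p of 0.00297 to 0.0468. BRCA1 (0.11 ± 0.14), BRCA2 (0.05 ± 0.18) and CHEK2 (-0.06 ± 0.27) were among the 28 members not called between the lines.

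**Figure D3:**
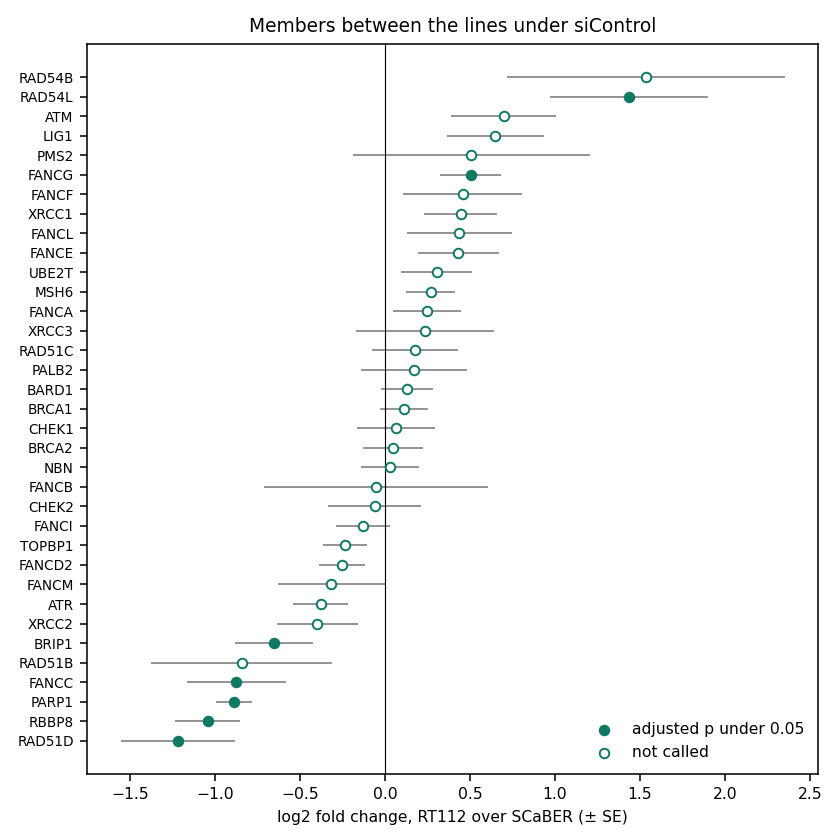
Log2 fold change of the 35 members between the 4 siControl libraries of RT112 and the 4 of SCaBER, with bars of 1 SE, sorted by size; filled points passed an adjusted p under 0.05. RAD54L and FANCG are the filled points above 0, and 5 filled points lie below 0.

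Genes of replication and mitosis moved with the repair genes. Of 18 proliferation genes, among them MKI67, TOP2A, PCNA, CDK1 and the MCM helicase subunits, 17 fell in RT112 and 16 in SCaBER with siFOXA1.1, and 0 were called with siFOXA1.2 in either line. With siFOXA1.1 their median log2 fold change was -1.83 (RT112) and -1.15 (SCaBER), and with siFOXA1.2 it was -0.08 and -0.09. MKI67, expressed in cycling cells, was -3.28 ± 0.23 (adjusted p = 3.27e-09) and -2.32 ± 0.19 (adjusted p = 4.71e-06). Summed over the list, RT112 gave 769 to 1199 CPM under siFOXA1.1 and 3955 to 4495 CPM under siControl, and SCaBER 1499 to 2592 and 4066 to 5212 CPM. The 35 members summed to 751 to 918 CPM and 1376 to 1625 CPM in RT112, and to 1065 to 1088 and 1609 to 1741 CPM in SCaBER. The part of proliferation in the change of the repair genes was not tested.

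Interferon response genes moved the other way. Of 10 such genes, 8 rose with siFOXA1.1 in RT112 and 10 in SCaBER, and 0 were called under siFOXA1.2. Their part in the change of the repair genes was not tested either. With mitochondrial genes left out of the fit, the counts of members called were again 16 in RT112 and 10 in SCaBER.

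**Figure D4:**
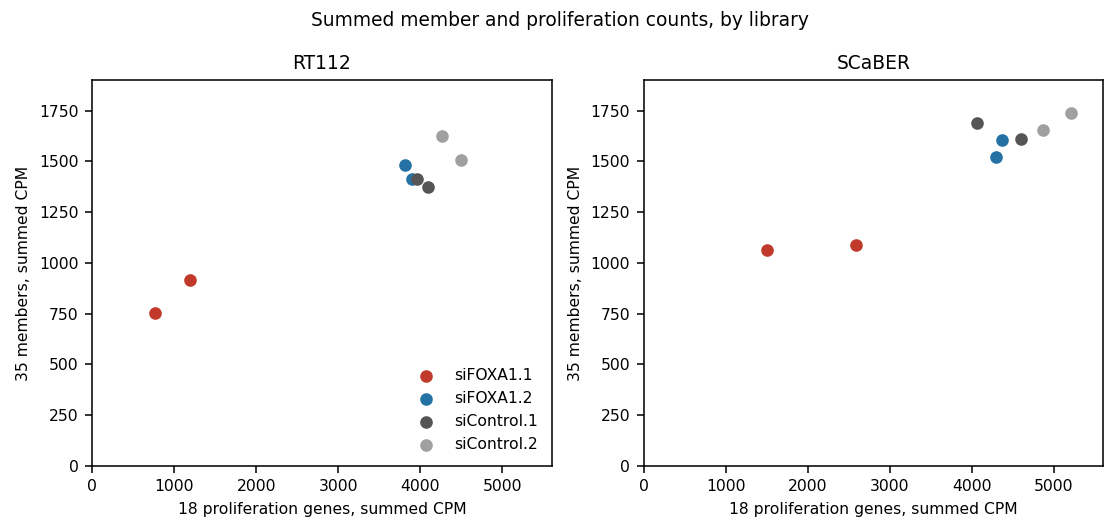
Summed CPM of the 35 members against summed CPM of 18 proliferation genes in each library of RT112 (left) and SCaBER (right), coloured by siRNA. The siFOXA1.1 libraries lie low on both axes, at 751 and 918 CPM for the members in RT112, while the siFOXA1.2 libraries lie at 1414 to 1485 CPM.

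The wider repair gene list held 97 names, 95 of them found in the table. In RT112, 37 of 93 tested were called under siFOXA1.1, 30 lower and 7 higher, with a median log2 fold change of -0.38, and in SCaBER 12 of 91, 10 lower and 2 higher, with a median of -0.24. These shares are 39.8% and 13.2%, where 29.1% of all genes tested were called in RT112 and 7.87% in SCaBER. By pathway, homologous recombination genes outside the 35 members had 14 falls and 1 rise of 27 in RT112 and 4 falls of 27 in SCaBER. Nucleotide excision genes had 1 rise and no fall of 11 in RT112 and 2 rises and no fall of 11 in SCaBER. Base excision genes had 5 falls and 2 rises of 17 in RT112 and 2 falls of 16 in SCaBER, and end joining genes 3 falls and 1 rise of 9 and 2 falls of 9. Other Fanconi genes had 4 falls of 12 and 1 fall of 12, other mismatch repair genes 1 fall of 3 and 0 of 3, and other checkpoint genes 3 falls and 2 rises of 14 and 1 fall of 13.

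In RT112 the falls included POLQ, the polymerase of end joining by short homologies (-2.32 ± 0.39, adjusted p = 0.000117), and SFR1, a recombination accessory gene (-2.70 ± 0.71, adjusted p = 0.00636). In the counts by pathway POLQ was listed with homologous recombination, not with end joining. NEIL3, a glycosylase, had 4.08 to 8.12 CPM in the controls and 0 counts in both siFOXA1.1 libraries, at least 13.2-fold lower against a floor of 3 counts per library. The rises included LIG4, the ligase of end joining (1.59 ± 0.53, adjusted p = 0.0284), and RAD9A and HUS1, subunits of the checkpoint clamp (1.38 ± 0.22 and 1.35 ± 0.37). In SCaBER, EXO1, a resection nuclease, was -1.88 ± 0.40 (adjusted p = 0.00863), PAXX, an end joining factor, -1.80 ± 0.44 (adjusted p = 0.0202), and CLSPN, an adaptor of CHEK1, -1.77 ± 0.23 (adjusted p = 0.000207). XPA and ERCC6, nucleotide excision genes, rose there (1.41 ± 0.33 and 1.28 ± 0.31). Under siFOXA1.2, RPA3, a subunit of the single-strand binding protein, fell in RT112 (-0.83 ± 0.17, adjusted p = 0.0142), and it was the 1 gene of the wider list called with that siRNA. That is 1.08% of the 93 tested in RT112, below the 1.78% called over all genes.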

How the data were processed

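RNA of RT112 and SCaBER was sequenced with a 3' mRNA kit. Per the deposited configuration, the authors trimmed reads with TrimGalore 0.6.2 (minimum quality 20, minimum length 10), aligned them to hg38 with STAR 2.6.1a and counted on GENCODE 29 with strandedness set to auto. The methods of the study name hg19, and 10 ng of siRNA where the labels give 10 nM. The deposited tables hold raw counts and TPM, a length-scaled value that the authors derived from them. The floor was 3 counts per library, which is 0.394 to 0.453 CPM (counts scaled to library totals) for RT112 libraries and 0.434 to 0.662 CPM for SCaBER libraries, and covers counting error only.

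Counts of each line were fitted with edgeR 4.0.16 in R 4.3.3 (TMM, filterByExpr, quasi-likelihood F test, 1 mean per siRNA) and p-values were adjusted by Benjamini-Hochberg over all genes tested, with a threshold of 0.05. Errors are SE or ranges of libraries, and the code was tested on simulated data. All 16 libraries were used for differences between the lines in response, and the 8 siControl libraries for differences in level. The pooled comparison had 1 mean per target. Alternatives were DESeq2 1.42.0, other scalings, no filter, limma 3.58.1 on log2(TPM + 1), 1 control siRNA alone, all libraries in 1 fit, a replicate block and leaving out each library. The labels say that a replicate number marks an experiment batch. Deviations of same-numbered libraries from the mean of their siRNA correlated across genes with r of -0.00778 to 0.0382 over 6 pairs of siRNAs in RT112 and 0.0193 to 0.27 in SCaBER. Replicates of a group differed by more than sampling noise (chi-square per degree of freedom 8.35 to 34.0). Nothing says that they came from separate cultures, so p-values measure the spread between these libraries. Overlaps at gene ends come from GENCODE 44 lifted to GRCh37, and promoters from RefSeq. Values in every library were printed for members called under siFOXA1.1 in both lines, called under siFOXA1.2, differing between the lines in response, or among the 4 largest differences in level each way. Genes of the wider list were the 3 largest rises and falls per line with a mean of at least 20 counts, and all calls under siFOXA1.2. Members, lists and rules were chosen with earlier results of these data known.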

Additional observations from a re-analysis of the deposited data

Results flagged for a closer look

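CHEK2 was picked out because its change under siFOXA1.1 differed between RT112 and SCaBER. It was the 1 member of 35 with such a difference, near the share of 2.59% over 15464 genes tested. FANCI was called as well under some of the alternatives. For CHEK2 the RT112 log2 fold change minus the SCaBER log2 fold change was -2.49 ± 0.53 (SE, edgeR adjusted p = 0.0135). It kept its direction and its side of the threshold in all 25 alternatives, with a range of -2.84 to -2.04 and adjusted p of 0.000904 to 0.05. Groups of 2 libraries are too small to test for a library that stands apart.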

How the results depend on the processing

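No member called under siFOXA1.1 against the controls, between the lines or in the interaction with siFOXA1.1 changed sign in an alternative, and for siFOXA1.1 against siFOXA1.2 the alternatives were run for counts of members. Under siFOXA1.1 the RT112 members called kept their call in 282 of 288 values and the SCaBER members in 159 of 180. Members not called changed sign in 24 of 342 values in RT112 and 28 of 448 in SCaBER. In counts of members called, limma on log2 TPM gave 6 in SCaBER under siFOXA1.1 instead of 10, 1 instead of 6 for siFOXA1.1 against siFOXA1.2 in SCaBER and 11 instead of 7 between the lines. The replicate block gave 10 instead of 6 for siFOXA1.1 against siFOXA1.2 in SCaBER, 4 between the lines and 2 instead of 1 for the interaction with siFOXA1.1, and otherwise moved no count by over 1.5 times. Beside the members named with it in the text above, the replicate block changed no other call under either FOXA1 siRNA, between the lines or in the interaction. Between the lines limma lost FANCG and added XRCC2, FANCD2, FANCI, ATR and TOPBP1, all lower in RT112. It called 1943 genes higher and 4742 lower of 15101 there. Between the lines siControl.1 alone and all 16 libraries in 1 fit gave 3 each. For the interaction, DESeq2, library totals, no filter and siControl.2 alone gave 2 each, CHEK2 and FANCI. No filter gave 1 instead of 0 for the control siRNAs in RT112 and for the pooled siRNAs in SCaBER.

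Leaving out 1 library gave 15 to 17 members in RT112 and 8 to 12 in SCaBER under siFOXA1.1, 15 to 17 and 0 to 8 for siFOXA1.1 against siFOXA1.2, 3 to 8 between the lines, 1 to 3 for the interaction, 0 to 1 for the control siRNAs in RT112 (1 without either siFOXA1.1 library) and 0 under siFOXA1.2 in each line. Of all genes called under siFOXA1.1 in RT112, 48% were higher, 37.8% with library totals and 22.5% on TPM, with a median shift of -0.14 and -0.30 on the log2 scale, and in SCaBER 48.3% and 37.6% on TPM. Where 1 library of an siRNA was left, it was assumed to vary like the others. The number of calls over all genes moved in the fits with 1 library left out as well. A floor of 3 counts left RAD54B, PMS2, RAD51B and FANCB with few counts, where depth limits the comparison.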
